A study of Mus musculus with 6 samples.

Results

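The myosins, troponins and sarcomere genes are the motor, regulatory and scaffold proteins of muscle contraction, together with the relatives that cells outside muscle use for tension and shape. All features were taken whose symbol is a numbered myosin heavy or light chain (Myh, Myl) or a numbered troponin C, I or T (Tnnc, Tnni, Tnnt), with Acta1, Actn2, Actn3, Ckm, Ttn, Neb, Mybpc1, Mybpc2 and Des added singly. This gave 43 of the 40428 features of the count table, 34 by the pattern and 9 singly. Their RNA was counted in subcutaneous white adipose tissue of 3 control mice with Nampt flox/flox alleles and 3 ANKO mice, in which a Cre transgene under the adiponectin promoter deletes Nampt from adipocytes. All mice were of the C57BL/6J background, were fed regular chow and were kept at room temperature, and no source used here gives their age. RNA was taken from the whole frozen tissue and depleted of ribosomal RNA, so vascular, stromal, immune and any attached muscle cells contribute RNA, and fewer cells of a type cannot be told apart from less RNA per cell. Nampt, the enzyme of NAD salvage that was deleted, was at 83.6, 93.0 and 87.0 CPM (read counts scaled to library size) in controls 1, 2 and 3 and at 48.6, 50.2 and 47.0 CPM in ANKO 1, 2 and 3. Library totals were 19748962 to 23860596 counts.

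In a sarcomere, bipolar filaments of myosin pull on actin filaments that are anchored at the Z disc by alpha-actinin, measured along their length by nebulin and held in register by titin. Each myosin has heavy chains with the motor domain and essential and regulatory light chains on its lever arm, and the troponin complex on actin opens the filament when calcium binds. Fibre types differ in the heavy chain they use: Myh4 in fast glycolytic IIb fibres, Myh1 in IIx, Myh2 in fast oxidative IIa and Myh7 in slow fibres and the heart. Fat cells have no sarcomeres, while smooth muscle around vessels uses Myh11, and most cells hold the nonmuscle chains Myh9 and Myh10.

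The sequences just before the transcription start are shown for 3 genes that moved together with skeletal muscle RNA (Acta1, Ckm, Myh4) and for Myl3, the member that differed between the groups. Each is the 250 bases before the RefSeq start on GRCm38.p6, 5′ to 3′ on the gene's own strand, with capitals at matches on either strand to the E-box (CANNTG), the CArG box and the MEF2 site.
Acta1, chr8:123894776-123895025, minus strand: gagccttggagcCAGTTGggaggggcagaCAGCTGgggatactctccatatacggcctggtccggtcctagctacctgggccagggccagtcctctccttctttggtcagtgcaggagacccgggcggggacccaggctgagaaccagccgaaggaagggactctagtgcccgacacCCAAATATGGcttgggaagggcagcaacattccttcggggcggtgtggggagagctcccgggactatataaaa
Ckm, chr7:19410844-19411093, plus strand: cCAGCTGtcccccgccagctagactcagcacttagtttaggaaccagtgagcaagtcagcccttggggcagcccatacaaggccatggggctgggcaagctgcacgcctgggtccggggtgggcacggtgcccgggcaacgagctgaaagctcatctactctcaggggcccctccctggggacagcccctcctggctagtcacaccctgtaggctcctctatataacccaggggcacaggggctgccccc
Myh4, chr11:67237562-67237811, plus strand: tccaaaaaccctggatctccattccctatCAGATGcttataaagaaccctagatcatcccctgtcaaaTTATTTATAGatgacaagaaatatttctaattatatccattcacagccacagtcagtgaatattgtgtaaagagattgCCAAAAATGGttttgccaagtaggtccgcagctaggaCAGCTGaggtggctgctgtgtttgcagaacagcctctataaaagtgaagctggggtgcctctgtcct
Myl3, chr9:110763428-110763677, plus strand: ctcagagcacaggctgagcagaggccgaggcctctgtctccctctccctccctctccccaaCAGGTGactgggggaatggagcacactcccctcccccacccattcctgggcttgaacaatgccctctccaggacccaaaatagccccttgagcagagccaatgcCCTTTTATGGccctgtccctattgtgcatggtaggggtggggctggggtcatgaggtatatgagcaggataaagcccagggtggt

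Acta1, Myh4 and Myl3 each held 1 CArG box, the sequence bound by serum response factor, and Myh4 also held 1 MEF2 site. The windows of Ckm and Myl3 lie inside the annotated genes, which begin further upstream in longer models. An E-box stood in all 4, and in 66.2% of the 32851 windows of this length in the table. The CArG box was in 1.47% and the MEF2 site in 1.69% of those windows. Among members, 38 genes had 45 windows, of which 36 held an E-box, 6 a CArG box and 4 a MEF2 site. These matches are descriptions of letters and show no binding.

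Skeletal muscle RNA was present in every library and differed widely between mice of one group. It was measured by a muscle index, the summed CPM of 37 other muscle genes for calcium handling, the Z disc and M band and energy supply, none of which is a member by the naming rule. Among them is Mylpf, the fast regulatory myosin light chain. The index was 2914, 972 and 4671 CPM in controls 1, 2 and 3 and 8767, 1630.2 and 127 CPM in ANKO 1, 2 and 3. ANKO 1 and ANKO 3, of the same group, were the highest and the lowest library and stood 69.3-fold apart, while the groups overlapped. The log2 index did not separate the groups (exact permutation test, two-sided, p = 0.8, where 0.1 is the smallest that 3 against 3 allows). All members together took 1.38%, 0.597% and 1.91% of the counts in the controls and 3.59%, 0.792% and 0.283% in ANKO. The 95% exact binomial interval of the lowest share was 0.281% to 0.285%, and such intervals cover counting error only. A list of 10 myogenic genes, with those of satellite cells and myoblasts and with Myf6 of mature fibres, was low. Its summed level was 0.418 to 10.8 CPM, highest in ANKO 1 and lowest in ANKO 3 as the index was. Mymx was at 0 in every library and Myf5 at 0 in all but ANKO 1.

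Each gene was then given a slope, its change in log2 level for each doubling of the muscle index, in a model that also held the group. A slope of 1 means a level proportional to the index and a slope of 0 a level that ignores it. Of the 43 members, 35 passed the filter on low counts and were tested. Of these, 12 followed the muscle index with adjusted p under 0.05 in edgeR's quasi-likelihood test, against 0.768% of the 19272 genes tested, and none fell as it rose (0.00519% of genes tested). A further 11 were flat, meaning not called and with the 95% interval of the slope inside -0.25 to 0.25, which held for 69% of genes tested. Of these 11, 5 met this definition without ANKO 3 and 6 without ANKO 1. The other 12 were unresolved. With an index without Mylpf, 12 members followed as well. Just inside the flat range lay Myh7b and Tnni3, with intervals reaching 0.245 in both, and just outside it lay Myl4 and Myl3, with intervals reaching -0.25 and -0.28. The median slope was 0.40 over the 35 members and 0.00071 over all genes tested.

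**Figure D1:**
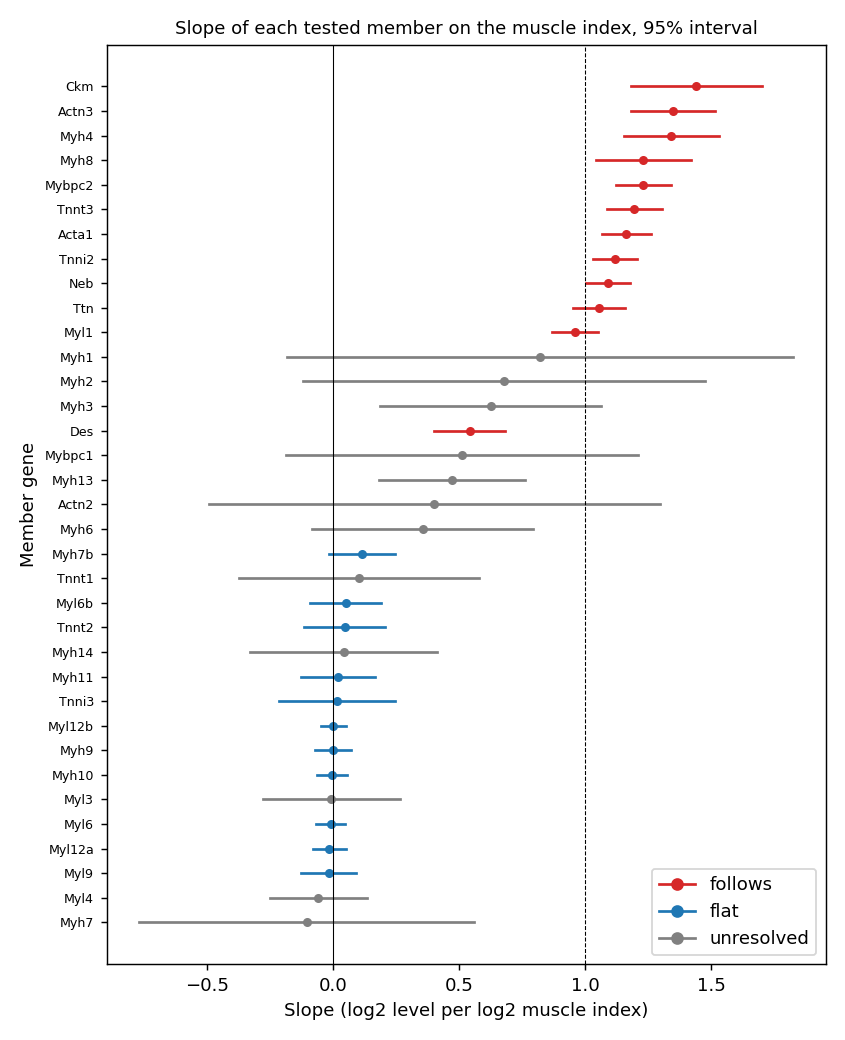
Slope of each of the 35 tested members on the muscle index (log2 level per log2 index), with 95% intervals, by class. The 12 that follow the index (red) lie from 0.54 for Des to 1.44 for Ckm, and the 11 flat members (blue) lie around 0.

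Among the fast heavy chains, Myh4 (chromosome 11, 67238029 to 67260446, plus strand) had the highest level per length, at 481 CPM per kilobase of exon over all libraries. It stood at 2811, 489 and 4242 CPM in controls 1, 2 and 3 and at 8328, 1462 and 32.2 CPM in ANKO 1, 2 and 3. Its library order was that of the index, and its highest and lowest libraries were both ANKO. The slope of Myh4 was 1.34 (SE 0.0794, adjusted p = 0.000387). Myh8, the perinatal heavy chain, ran beside it at 21.2, 5.14 and 42.5 CPM in the controls and 67.5, 14.1 and 0.279 CPM in ANKO, with a slope of 1.23 (SE 0.079, adjusted p = 0.000712). There were 0.754 to 1.05 Myh8 counts for each 100 of Myh4 in all 6 libraries. In ANKO 3 this ratio rests on 6 counts of Myh8 and 692 of Myh4. These chains lie in one cluster of similar genes on chromosome 11, and no source used here tells how reads that match several of them were counted.

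The fast troponins and the fast light chain moved with Myh4. Tnnt3, which ties the troponin complex to tropomyosin and had the highest level per length of the troponins (199 CPM per kilobase), stood at 318, 79.2 and 451 CPM in the controls and 891, 149 and 5.48 CPM in ANKO. Tnni2, the fast inhibitory subunit, stood at 155, 43.1 and 236 CPM in the controls and 425, 78.7 and 3.67 CPM in ANKO. Both sets fall in the order of the index, with the groups overlapping. The slopes were 1.19 (SE 0.0465, adjusted p = 5.04e-05) for Tnnt3 and 1.12 (SE 0.037, adjusted p = 4.00e-05) for Tnni2. Myl1, the fast essential light chain and the highest member light chain per length (101 CPM per kilobase), stood at 204, 57.6 and 315 CPM in the controls and 575, 100.4 and 10.5 CPM in ANKO. Its slope of 0.96 (95% interval 0.87 to 1.05) included 1. In ANKO 3, where muscle RNA was lowest, there were 32.8 Myl1 counts for each 100 of Myh4, against 6.87 to 11.8 in the other 5 libraries.

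Among the 8 tested thin filament, giant and cross-linking proteins, 6 followed the index. Acta1 (chromosome 8, 123891769 to 123894751, minus strand), skeletal alpha-actin, had the highest level per length of all members at 725 CPM per kilobase. Its values were 995, 294 and 1701 CPM in the controls and 3139, 532 and 22.5 CPM in ANKO, with a slope of 1.16 (SE 0.0417, adjusted p = 4.00e-05). Ttn, titin, stood at 4945, 1714 and 7920.4 CPM in the controls and 14732, 2539.8 and 161 CPM in ANKO, and its slope of 1.05 (95% interval 0.95 to 1.16) included 1. Neb, nebulin, stood at 689, 234 and 1121 CPM in the controls and 2118, 351 and 19.7 CPM in ANKO (slope 1.09). Mybpc2, the myosin-binding protein C of fast fibres, stood at 159, 35.0 and 267 CPM in the controls and 529.6, 89.8 and 3.07 CPM in ANKO (slope 1.23). Both genes kept the order of the index and were called. Actn3, the alpha-actinin of fast fibres, stood at 349.9, 54.8 and 547 CPM in the controls and 1078, 170.4 and 4.09 CPM in ANKO, with a slope of 1.35 (SE 0.0702, adjusted p = 0.000293). Ckm, the muscle creatine kinase that buffers ATP beside the filaments, had the steepest slope of the members, 1.44 (SE 0.105, adjusted p = 0.00341). Its level was 337, 64.0 and 554 CPM in the controls and 1012, 175 and 2.14 CPM in ANKO, a 473-fold range between ANKO 1 and ANKO 3. In all, 9 of the 12 slopes had an interval above 1. Without ANKO 3, the library with the lowest index, all 9 of these intervals included 1. The size of a slope also depended on the genes of the index. With the calcium handling genes alone the slopes were 0.98 for Neb, 1.04 for Acta1 and 1.21 for Actn3. With the energy genes alone they were 1.20, 1.28 and 1.49.

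Des, desmin, is the intermediate filament of skeletal and of smooth muscle, and it rose less steeply with the index than any other following member. It stood at 131, 57.8 and 189 CPM in the controls and 333, 88.5 and 35.9 CPM in ANKO. Its slope was 0.54 (95% interval 0.40 to 0.68), below 1, and ANKO 1 exceeded ANKO 3 by 9.27-fold against 54.5-fold or more for the other 11. Without control 1 (adjusted p = 0.0604) or without ANKO 1 (adjusted p = 0.499) it was not called.

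**Figure D2:**
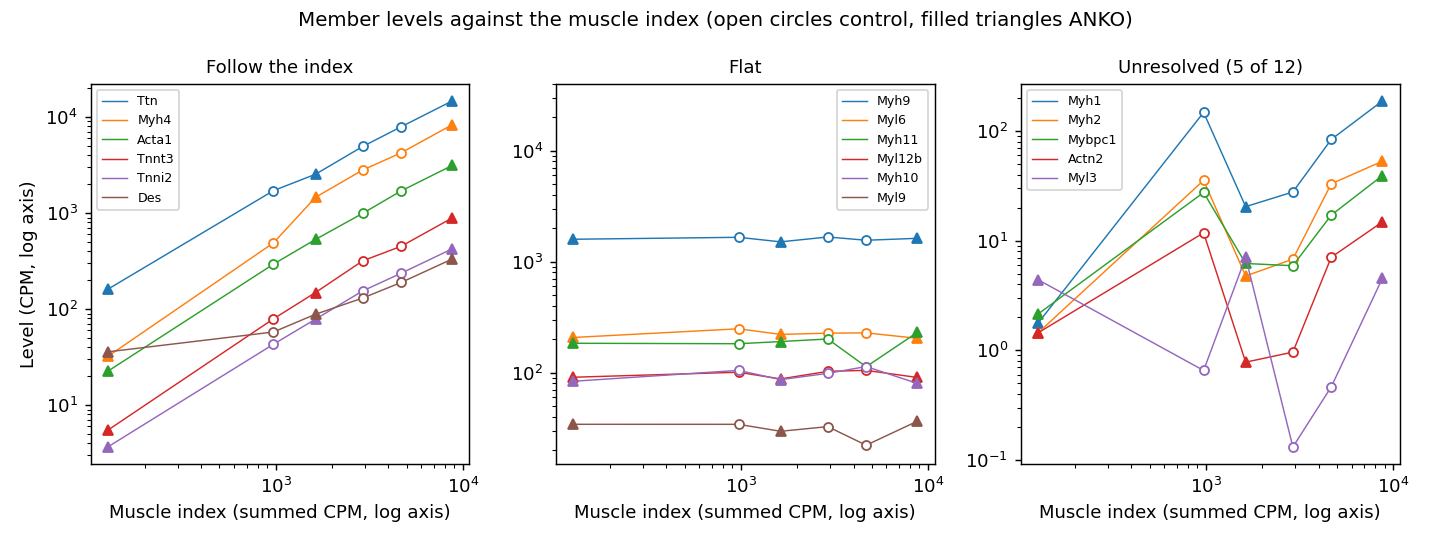
Level of 17 members (CPM) against the muscle index (CPM) on log axes, open circles for control and filled triangles for ANKO libraries, joined in the order of the index. Following members climb with the index from 127 to 8767 CPM, flat members stay level, and Myh1, Myh2, Mybpc1 and Actn2 stand high in control 2, at an index of 972 CPM.

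The loss of Nampt from adipocytes was then compared with control for each member. Of the 35 tested members, 1 was higher (0.488% of all genes tested) and none was lower (1.1%) at adjusted p under 0.05 by edgeR, which called 1.59% of all genes in either direction, and 3 members had an unadjusted p under 0.05. That held for 12.9% of all genes tested. DESeq2 called 1 member higher and 1 lower, a share near the 4.6% of all genes that it called. None of the 12 following members was called, and their log2 fold changes of ANKO over control ran from 0.22 to 0.43 (median 0.29, against 0.00068 over all genes tested), with adjusted p of 0.952 or more. These estimates carried little information, since their median standard error was 1.66 against 0.186 over all genes, and the median moved to -1.83 without ANKO 1, to 0.87 without ANKO 3, to 0.89 without control 3 and to 0.66 without ANKO 2. It was also below 0 without control 2 (-0.14), with limma-voom (-1.22) and with the replicate number as a block (-0.17). With the muscle index in the model the median standard error of the 12 fell to 0.144 and their median log2 fold change was -0.06, again with none called (smallest adjusted p = 0.612). For Myh4 the interval of the group difference was -4.51 to 5.27 without the index and -0.55 to 0.58 with it.

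The heavy chains Myh1 and Myh2 left the common order in control 2, as did Mybpc1 and Actn2. Myh1, the IIx heavy chain, stood at 27.8, 148 and 83.8 CPM in the controls and 188, 20.4 and 1.77 CPM in ANKO. Control 2 had the lowest muscle index of the controls and the highest Myh1 of them. Myh2, the IIa heavy chain, stood at 6.79, 35.5 and 33.0 CPM in the controls and 53.1, 4.76 and 1.44 CPM in ANKO, and was likewise highest among controls in control 2. Among the counts of 7 sarcomeric heavy chains, Myh1 took 21.7% in control 2 (95% exact interval 21.04% to 22.4%) and between 0.969% and 4.73% in the other 5 libraries. Myh4 took 71.9% in control 2 (71.1% to 72.6%), 86.1% in ANKO 3 (83.5% to 88.4%) and 96.2% to 97.9% elsewhere. These intervals cover counting error only.

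The ratios of Mybpc1 and Actn2 to their fast relatives departed in control 2 and also in ANKO 3. Mybpc1, the myosin-binding protein C of slow and oxidative fibres, stood at 5.91, 27.5 and 17.1 CPM in the controls and 39.2, 6.19 and 2.14 CPM in ANKO. There were 78.6 Mybpc1 counts for each 100 of its fast relative Mybpc2 in control 2 and 69.7 in ANKO 3, against 3.72 to 7.41 in the other 4 libraries. Actn2, the alpha-actinin of all striated fibres, stood at 0.963, 11.8 and 7.06 CPM in the controls and 14.8, 0.780 and 1.44 CPM in ANKO. Its ratio to each 100 counts of Actn3 was 21.5 in control 2 and 35.2 in ANKO 3 and 0.275 to 1.38 in the other 4. The ratios of ANKO 3 rest on 46 counts of Mybpc1 over 66 of Mybpc2 and on 31 of Actn2 over 88 of Actn3. Myoglobin (Mb), the oxygen store of oxidative fibres and no member, stood at 25.2 and 58.3 counts for each 100 of Pvalb, the calcium buffer of fast glycolytic fibres, in those same 2 libraries and at 0.525 to 1.90 in the other 4. In ANKO 3 that ratio rests on 48 counts of Pvalb. The controls and the ANKO mice each contributed 1 library to this pair of libraries, which was picked out after the values were seen. A part of the group in the departure was not tested. By contrast Tnni2 kept to 13.5 to 16.3 counts for each 100 of Acta1 in all 6.

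**Figure D3:**
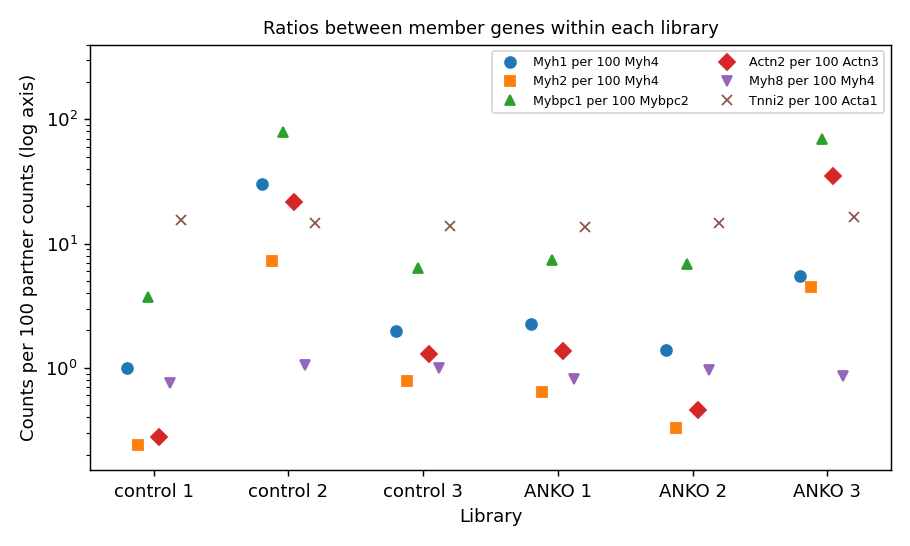
Counts of one member for each 100 counts of another in each library, log axis. Myh1 and Myh2 against Myh4, Mybpc1 against Mybpc2 and Actn2 against Actn3 are higher in control 2 and ANKO 3 than elsewhere. Myh1 for each 100 of Myh4 is 30.2 in control 2 and 5.49 in ANKO 3, there on 38 counts of Myh1. Myh8 against Myh4 and Tnni2 against Acta1 stay level, with 6 counts of Myh8 in ANKO 3.

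The slopes of these 4 members on the index were 0.82 for Myh1, 0.68 for Myh2, 0.51 for Mybpc1 and 0.40 for Actn2, all unresolved. Their intervals were wide, for example -0.18 to 1.82 for Myh1. Without control 2 the slope of Myh1 was 1.14 (SE 0.0962) and was called (adjusted p = 0.0232), and those of Myh2, Mybpc1 and Actn2 were 0.92, 0.71 and 0.59 with adjusted p = 0.609, 0.261 and 0.9999. Without ANKO 1 the slopes of Myh1, Myh2, Mybpc1 and Actn2 were 0.32, 0.19, 0.09 and -0.36, and without ANKO 3 they were 0.26, 0.48, 0.23 and 0.33, none called. Further heavy chains, the embryonic Myh3 (slope 0.63, adjusted p = 0.652) and the extraocular Myh13 (slope 0.47, adjusted p = 0.416), were also unresolved, with 0.279 to 2.65 CPM and 0.857 to 6.47 CPM across libraries. DESeq2 called Myh13 (adjusted p = 0.048), with 1.3% of all genes called.

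The slow and cardiac heavy chains, light chains and troponins other than Myl3 were at 6.01 CPM or less. Several were near the limit of detection of 3 counts, or 0.126 to 0.155 CPM. Myh7, the slow and cardiac heavy chain, stood at 0.569, 1.66 and 0.155 CPM in the controls and 0.378, 0.996 and 0.232 CPM in ANKO, which is 3 to 33 counts. It was highest in control 2 and ANKO 2, and its slope of -0.10 had an interval of -0.77 to 0.56. Tnnt1, the slow troponin T, stood at 0.258 to 1.21 CPM and Myh6, the atrial heavy chain, at 0.0929 to 0.672 CPM. Tnnt2 and Tnni3, known as cardiac troponins, were low at 2.47 to 4.66 CPM and 1.91 to 4.69 CPM, and both were flat with slopes of 0.05 and 0.02. Myh7b, a heavy chain of slow muscle and some neurons, was flat at 3.39 to 6.01 CPM (slope 0.12, 95% interval -0.01 to 0.25). This class was fragile when single libraries were left out. Tnni3 kept it only without control 3 and Myh7b only without ANKO 1, while Tnnt2 lost it without ANKO 1 or without ANKO 3. Of 10 cardiac marker genes, of which Myh6, Myl7 and Tnni3 are members, Tbx20 was at 0 in every library, Nppb was at most at 0.0876 CPM, and the summed level was 13.7 to 22.3 CPM.

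Myl3 was the 1 member that differed between the groups. Myl3 (chromosome 9, 110741861 to 110769798, plus strand) encodes the essential light chain of slow skeletal and ventricular muscle. It had 3, 13 and 9 counts in controls 1, 2 and 3 and 108, 163 and 95 counts in ANKO 1, 2 and 3. It passed the filter on low counts through the ANKO libraries. In CPM this was 0.131, 0.655 and 0.464 in the controls and 4.54, 7.06 and 4.41 in ANKO. All 3 ANKO libraries lay above all 3 controls, as they did for 9.19% of genes tested, with 19.4% not overlapping in either direction. The means were 0.417 ± 0.265 CPM (SD, n = 3) and 5.34 ± 1.49 CPM. On the log2 scale the fitted level in ANKO exceeded control by 3.69 (12.9-fold) with a 95% interval of 2.58 to 4.79 (SE 0.4795, edgeR adjusted p = 0.0128). Myl3 kept adjusted p under 0.05 in all 14 alternatives, those that left out 1 library included, with 0.0499 the highest (without ANKO 3).

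The level of Myl3 did not move with muscle RNA as that of Myl1 did. ANKO 1 and ANKO 3, 69.3-fold apart in the muscle index, had nearly the same Myl3 level, and control 3 with the second highest index had 0.464 CPM. The slope of Myl3 was -0.01 (95% interval -0.28 to 0.26), just wider than the flat range, and with the index in the model ANKO exceeded control by 3.68 in log2 (SE 0.507, edgeR adjusted p = 0.0301). In that model 1 member was higher (0.265% of genes tested) and none was lower (0.617%), with 0.882% called in either direction. The call in that model was lost with limma-voom (adjusted p = 0.0510) and without control 2, ANKO 1, ANKO 2 or ANKO 3 (adjusted p = 0.0862, 0.0919, 0.118 and 0.0827), while the log2 fold change stayed between 3.24 and 4.24.

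The slow genes that are partners of Myl3 in muscle overlapped between the groups. Myl2, the matching regulatory light chain, had 0, 4 and 0 counts in the controls and 4, 0 and 2 in ANKO. Tnnc1, the slow and cardiac troponin C, had 0, 22 and 7 counts in the controls and 6, 8 and 10 in ANKO. Tnni1, the slow troponin I, had 10, 4 and 7 and then 9, 8 and 4 counts. In none of the 3 did the groups separate, and Myh7 likewise overlapped (log2 fold change -0.56, 95% interval -2.52 to 1.40). The other essential light chain of developing and atrial muscle, Myl4, stood at 5.34, 3.93 and 3.40 CPM in the controls and 2.48, 4.46 and 3.53 CPM in ANKO (log2 fold change -0.28, adjusted p = 0.772). In the GENCODE M21 annotation 4.65% of the Myl3 exon length overlaps Pth1r on the other strand. Pth1r, the parathyroid hormone receptor, stood at 52.7, 34.3 and 43.3 CPM in the controls and 50.6, 96.4 and 62.5 CPM in ANKO (adjusted p = 0.365), so its groups overlapped. No source used here gives the strand setting of the counting, and the part of Pth1r reads in the Myl3 count was not tested. Of 10 markers of brown fat, led by Ebf2, Cidea and Cox8b, 1 was higher in ANKO, the fatty acid elongase Elovl3 at 0.175 to 0.403 CPM in the controls and 2.70 to 9.14 CPM in ANKO, and none was lower. Their summed level was 85.7 to 152 CPM in controls and 92.2 to 138 CPM in ANKO. Ucp1, the uncoupling protein that defines brown fat, stood at 0, 1.66 and 1.24 CPM in the controls and 2.61, 7.80 and 5.02 CPM in ANKO (adjusted p = 0.395), with all ANKO values above all control values. Cidea also lay wholly above its controls (adjusted p = 0.395). Cox8b, a mitochondrial subunit, and Ppargc1a, a regulator of mitochondrial genes, lay wholly below, with log2 fold changes of -0.97 (adjusted p = 0.242) and -0.55 (adjusted p = 0.357). The median log2 fold change of the 10 markers was -0.06. The part of brown fat markers in the Myl3 difference was not tested.

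**Figure D4:**
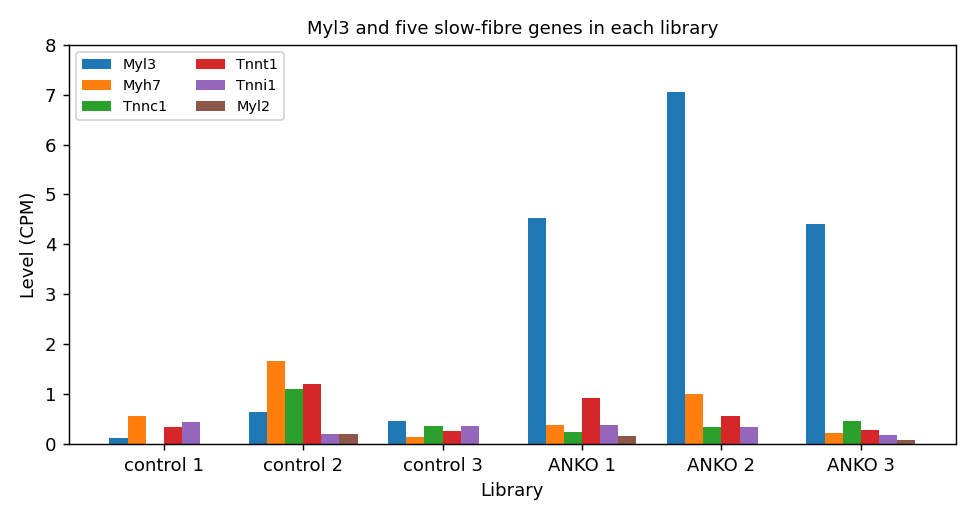
Level (CPM) of Myl3 and of Myh7, Tnnc1, Tnnt1, Tnni1 and Myl2 in each library, as bars from 0. Myl3 stands at 4.41 to 7.06 CPM in the 3 ANKO libraries and at 0.131 to 0.655 CPM in the controls, while the other genes stay at or below 1.66 CPM in all 6.

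Of the 9 smooth muscle and nonmuscle myosin chains, 8 were flat, as were 69% of all genes tested. Without ANKO 3 or without ANKO 1 the intervals of Myh11, Myl6b and Myl9 were wider than the flat range, which left 5. Myh9, the nonmuscle heavy chain IIA found in most cells, stood at 1666, 1655 and 1557 CPM in the controls and 1621, 1507 and 1589.6 CPM in ANKO. Its highest library exceeded its lowest by 1.11-fold, with a slope of -0.0015 (95% interval -0.07 to 0.07). Myh11, the smooth muscle heavy chain, stood at 201.2, 182 and 113 CPM in the controls and 231, 191 and 184 CPM in ANKO, lowest in control 3, with a slope of 0.02 (95% interval -0.13 to 0.17). The light chains Myl6, Myl6b, Myl9, Myl12a and Myl12b, which serve these heavy chains, were all flat, with slopes from -0.02 to 0.05. A second annotated gene that is also named Myl12b overlaps 13.8% of the Myl12a exon length and 26.7% of that of the main Myl12b, so how their reads were divided is uncertain. The summed level of 13 mural and smooth muscle markers stayed at 978 to 1164 CPM in all libraries.

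Myh10, the nonmuscle heavy chain IIB, stood at 98.7, 105 and 114 CPM in the controls and 80.1, 86.7 and 83.7 CPM in ANKO. All ANKO values lay below all control values, as they did for 10.2% of genes tested and for 3 of the 35 members, the others being Myl6 and Myl12b. Its log2 fold change was -0.34 (95% interval -0.53 to -0.15) with an unadjusted p of 0.00325 and an adjusted p of 0.105 by edgeR. DESeq2 gave -0.33 with adjusted p = 0.0472. Myl12b had a log2 fold change of -0.20 (adjusted p = 0.268) and Myl6 of -0.15 (adjusted p = 0.516). For Myh9 the interval of the group difference was -0.28 to 0.18.

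Myh14, the nonmuscle heavy chain IIC of epithelia and other tissues, was the exception among the nonmuscle chains. It stood at 68.4, 125 and 37.9 CPM in the controls and 96.1, 69.2 and 50.2 CPM in ANKO, with an unresolved slope of 0.04 (95% interval -0.33 to 0.41). The summed level of 8 epithelial markers, led by Krt8, Krt18 and Epcam, was 538, 1048 and 132 CPM in the controls and 639.97, 543 and 411 CPM in ANKO. Both measures put the 6 libraries in the same order, from control 2 down to control 3. This likeness was chosen after the values were seen, and its part in the spread of Myh14 was not tested.

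The filter on low counts removed 8 members: Myl2, Myl7, Myl10, Myh15, Tnnc1, Tnnc2, Tnni1 and Tnni3k, a cardiac kinase that matches the naming rule but is not a troponin. Myh15, a heavy chain of ancient origin, had 2 to 9 counts in 5 libraries and 24 in ANKO 3. Tnnc2, the fast troponin C, had 4, 0 and 12 counts in the controls and 16, 2 and 0 in ANKO, while Tnni2, its partner in the same complex, had 3535, 855 and 4585 counts in the controls and 10111, 1816 and 79 in ANKO. Tnnc2 therefore had at most 0.262 counts for each 100 of Tnni2, and its own order across the controls and across ANKO was that of the index. In the GENCODE M21 annotation 74% of the Tnnc2 exon length (chromosome 2, 164777161 to 164779967, minus strand) overlaps an exon of Ube2c on the other strand, against 15.5% or less for every other member. Ube2c, a ubiquitin-conjugating enzyme of dividing cells, had a level of 1.43 to 5.39 CPM and a slope of -0.09. The part of this overlap in the low Tnnc2 count was not tested, and its count is given as uncertain.

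The genes around the members were read from lists. The muscle index genes themselves, which define the slope, are given without a test: 10 of 11 for calcium handling (led by Atp2a1, Ryr1 and Pvalb), 16 of 17 in the Z disc and M band list (among them Cmya5, and the light chain Mylpf) and 6 of 9 for energy supply (Pygm, Eno3, Pgam2) were in the following class, and none of the 37 was called between the groups. Of 18 contractile partners outside the sarcomere list, led by Actb, Flna and Tln1, 2 followed the index and 15 were flat. Over all genes tested these shares were 0.768% and 69%. The 2 partners that followed were the tropomyosins Tpm1 (slope 0.53, adjusted p = 0.0327) and Tpm2 (slope 0.64, adjusted p = 0.00823), which lie along actin in striated and smooth muscle. No partner was called between the groups. Of the 13 mural markers, led by Notch3, Acta2 and Rgs5, 1 followed the index, the intermediate filament gene Synm (slope 0.36, adjusted p = 0.00496), and 1 was lower in ANKO, Mcam. Among the myogenic genes Myf6, the regulator kept in mature fibres, followed the index (slope 1.13, adjusted p = 0.0239). Of 8 adipocyte markers, led by Cfd, Fabp4 and Pnpla2, none followed the index. Called lower in ANKO were 3 of them (Cfd, Plin1 and Adipoq), against 1.1% of genes tested. All 8 had log2 fold changes below 0 (median -0.79, highest -0.45), and 5 lay wholly below control, as 10.2% of genes tested did. Their summed level was 11386 to 17079 CPM in controls and 4547 to 6689.5 CPM in ANKO, so the groups did not overlap.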

How the data were processed

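The authors deposited raw read counts per gene symbol, 1 column per sample, for 3 control and 3 ANKO mice. STAR 2.0.4b, Subread and featureCounts 1.45 with GRCm38 are named per the submitters' processing notes. No source used here gives the annotation release, the strand setting or the treatment of multi-mapping reads. From 40757 lines, 329 exact repeats were dropped, none of a member. All 19272 features passing filterByExpr were fitted with edgeR 4.0.16 in R 4.3.3 (TMM scaling, robust quasi-likelihood F tests, Benjamini-Hochberg adjustment over all genes, threshold 0.05). CPM are TMM-scaled. Standard errors are the estimate divided by the square root of F. The muscle index is the centred log2 of the summed CPM of 37 genes. Exon lengths and overlaps come from GENCODE M21, and promoters from RefSeq (GRCm38.p6). DESeq2 1.42.0 and limma 3.58.1 were alternatives. The steps were tested on simulated data. Members, lists and classes were chosen with earlier results of these data known. Named with values in each library were members called in any model, the adult, smooth and nonmuscle heavy chains Myh1, Myh2, Myh4, Myh7, Myh9, Myh10 and Myh11, and the highest member per length of each role. From most other lists the 3 highest genes were named, and 1 such gene is not reported here. The labels number the samples but do not say that each is a separate mouse, so p-values measure the spread between these 6 libraries.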

Additional observations from a re-analysis of the deposited data

How the results depend on the processing

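Of the 3 counts of members called, that of members following the muscle index stayed between 11 and 13 in all 19 alternatives, of which the index without Mylpf was chosen after seeing the data. The slopes of the 12 following members kept their sign in all 228 refits and lost the call in 2, both for Des. The count of members called between the groups was 1 in all alternatives but DESeq2, where it was 2, Myh10 being added. With the muscle index as covariate the count of 1 became 0 with limma-voom and ran from 0 to 1 when single libraries were left out. Of 34 members not called between the groups, 24 changed sign when some library was left out. The labels do not say whether the replicate numbers pair the samples, and correlations among so few libraries cannot decide it. Same-numbered libraries had correlations of deviations from the group means of 0.0746, -0.0333 and -0.0435. The highest correlation of any control with any ANKO library was that of control 2 with ANKO 3 (0.110). With the replicate number as a block, the counts were 1 called between the groups, 12 following and 1 called with the index. Over all genes tested, 306 were called between the groups, against 75 without ANKO 3 and 886 with DESeq2, and 170 with the index as covariate, against 22 without control 2 and 672 with DESeq2. The 148 genes that followed the index became 39 without ANKO 1 and 251 with DESeq2. The 11 flat members ranged from 5 (without ANKO 3) to 10 (without control 3) that met the definition when single libraries were left out, and the 9 following slopes with an interval above 1 from 0 (without ANKO 3) to 9. The 8 members that did not pass the filter on low counts have no test in the main fits, and the reason for their low counts was not tested.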
